A study of Mus musculus with 24 samples.

Results

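Wild-type SOX9, induced in cultured mouse epidermal stem cells (EpdSCs), was accompanied by 5864 accessible regions that had a peak in its own list and in none of the other 6 culture lists. They were 6.04% of the 97078 regions in the union of the 7 culture peak lists, in which peaks overlapping by at least 1 bp were merged. The regions were chosen by the presence and absence of deposited peaks, so these states are the rule and not a finding. They are called WT-SOX9-only regions below. Each was made of a single WT-SOX9 peak.

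SOX9 is a transcription factor of the SOX family, which bind DNA through a high-mobility-group (HMG) domain that bends the double helix. It marks the stem cells of the hair follicle, whereas interfollicular EpdSCs lack it. Pioneer factors such as SOX9 can bind their sites in closed chromatin and bring in remodelling complexes, SWI/SNF among them, that make it accessible. In ATAC-seq the Tn5 transposase inserts adapters into open DNA, and a pile-up of insertions is called as a peak.

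All cells came from male CD1 mice with K14rtTA, a doxycycline (DOX)-dependent activator driven by the keratin 14 promoter and so confined to keratin 14-expressing epithelium. The culture groups were keratinocytes with no age in the labels, and per the study's methods TRE-Sox9 cells were taken from the back skin of newborn pups. The uninduced group (noDOX) and WT-SOX9 carried TRE-myc-Sox9, ΔHMG-SOX9 carried SOX9 without its DNA-binding domain, and ΔTA-SOX9 carried SOX9 without its transactivation domain. AFOS carried TRE-FLAG-AFOS, which encodes an inhibitory form of FOS that blocks DNA binding by AP1. SOX9+AFOS and SOX9+ARID1a carried TRE-myc-Sox9 together with AFOS or with ARID1a, a SWI/SNF subunit. The 6 induced groups received DOX at 1 µg per ml, with a day of 3 given in the labels only for some samples of the groups with WT-SOX9 or a deleted SOX9. Per the study's methods, the 3 SOX9 versions, AFOS and ARID1a were delivered to cultured cells by lentivirus and selected with puromycin. By its labels, the noDOX list is the uninduced state of the WT-SOX9 cells alone. The 5 skin groups were TRE-myc-Sox9 EpdSCs sorted as CD34-negative, Ly6A-high cells before DOX (D0, postnatal day 21) and after 1 (W1, day 28), 2 (W2, day 35), 6 (W6, day 63) and 12 weeks (W12), with 2 samples in each of the 12 groups. W12 came from newborn skin grafted onto Nude mice, so its time and tissue source cannot be told apart.

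The authors pooled both replicates of a group before calling peaks. There is thus 1 list per group, no spread between replicates can be given, and no test across replicates was possible. Shares are given with 95% intervals (Wilson's method, counting error alone) and are set beside the same share over all culture regions. Read depth is unknown here. The culture lists held 49458 to 60231 peaks and the skin lists 57334 to 75956, all with an authors' normalised peak score of at least 3. A region absent from a list is one without a peak above that score.

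The lists were checked against the delivered genes. A WT-SOX9 peak of 3425 bp, with a score of 21.2, covered the last exon of Sox9, where the noDOX peak was 527 bp wide with a score of 3.71. The ΔHMG-SOX9 peak there was 2902 bp wide with a score of 71.9. SOX9+AFOS (735 bp, 5.11) and SOX9+ARID1a (726 bp, 3.71) had scores and widths nearer to noDOX than to WT-SOX9, and ΔTA-SOX9 and AFOS had no peak there. The last exon encodes the transactivation domain, which ΔTA-SOX9 lacks, so it is no check of that list. Per the study's methods, the cells of both combinations carried SOX9 as a transgene and received AFOS or ARID1a by virus, and the skin lists of the same transgene had widths of 583 to 728 bp there. The exon is therefore no clear check of the combinations either. No list had a peak over the last Fos exon or within 1 past the first, and delivery of AFOS was thus not visible there. Over the last Sox9 exon the list labelled W1 had no peak, whereas D0, W2, W6 and W12 had scores of 13.5, 15.1, 9.22 and 8.84. Peaks that stop within 100 bp of the borders of 1 Arid1a exon past the first, as a coding sequence without introns gives, numbered 13 in SOX9+ARID1a, 8 in the list labelled AFOS, 7 in SOX9+AFOS, 1 each in noDOX, ΔHMG-SOX9 and ΔTA-SOX9, and 0 in WT-SOX9. The labels of AFOS and SOX9+AFOS name no ARID1a. Without the AFOS list 6043 WT-SOX9-only regions were found, without the SOX9+AFOS list 6927, without both 7268, and without the ΔTA-SOX9 list 6022.

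The sequences of 6 WT-SOX9-only regions are shown because they had a SOX match and also appeared in skin after SOX9 induction. They are the 6 highest-scoring ones that lacked a peak at D0 and W1 and had one at W2, W6 and W12. Each line gives the nearest gene and the central 200 bases, read from the RefSeq GRCm38 genome on the plus strand, with SOX matches (ACAATAG or ACAATGG, or their reverse complements CTATTGT or CCATTGT) and AP1 matches (TGACTCA or TGAGTCA) in capitals.
Hdac9: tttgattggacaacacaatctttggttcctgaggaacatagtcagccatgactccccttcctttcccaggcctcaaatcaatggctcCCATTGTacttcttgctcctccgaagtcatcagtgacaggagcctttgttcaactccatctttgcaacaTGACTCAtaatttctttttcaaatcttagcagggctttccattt
Orc2: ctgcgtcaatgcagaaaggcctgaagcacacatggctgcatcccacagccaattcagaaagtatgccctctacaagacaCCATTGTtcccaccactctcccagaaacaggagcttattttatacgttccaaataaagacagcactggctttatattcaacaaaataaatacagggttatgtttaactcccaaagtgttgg
Pax1: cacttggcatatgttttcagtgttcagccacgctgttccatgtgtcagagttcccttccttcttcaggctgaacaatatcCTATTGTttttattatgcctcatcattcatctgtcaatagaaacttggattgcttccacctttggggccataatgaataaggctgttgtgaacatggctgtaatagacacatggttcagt
Fam49a: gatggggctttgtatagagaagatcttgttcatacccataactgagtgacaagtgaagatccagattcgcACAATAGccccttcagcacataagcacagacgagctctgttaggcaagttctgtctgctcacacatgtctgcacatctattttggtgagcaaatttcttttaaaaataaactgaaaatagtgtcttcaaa
Arrdc4: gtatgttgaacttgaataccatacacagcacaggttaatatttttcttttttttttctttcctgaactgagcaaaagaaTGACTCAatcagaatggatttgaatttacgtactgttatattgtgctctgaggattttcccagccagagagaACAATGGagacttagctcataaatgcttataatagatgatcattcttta
Fggy: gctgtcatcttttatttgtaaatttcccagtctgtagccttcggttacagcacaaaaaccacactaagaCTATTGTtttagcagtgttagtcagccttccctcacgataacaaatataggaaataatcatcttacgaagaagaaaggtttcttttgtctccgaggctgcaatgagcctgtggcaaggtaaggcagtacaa
The Hdac9 window (chr12:34602846-34603045, intergenic) lay 74072 bp from the transcription start site (TSS) of Hdac9, a histone deacetylase, and held both matches. The Orc2 window (chr1:58482846-58483045) lay in an intron of Orc2, an origin recognition subunit. The Pax1 window (chr2:147704270-147704469, intergenic) lay 339376 bp from Pax1, a paired-box transcription factor. The Fam49a (chr12:12457205-12457404) and Arrdc4 (chr7:68691461-68691660) windows were intergenic, and the latter held both matches. The Fggy window (chr4:95721940-95722139) lay in an intron of Fggy, a carbohydrate kinase. In the Hdac9, Orc2 and Arrdc4 windows the SOX match had the form ACAATGG (or its complement), which also holds the shorter SOX core described below. In the other 3 it had the form ACAATAG, which does not.

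Peak scores of WT-SOX9-only regions were low. The median score was 5.03, the middle of the distribution ran from 3.73 to 7.70 (quartiles), and the highest was 42.2. Over all 51781 WT-SOX9 regions the median was 9.77, and 909 WT-SOX9-only regions (15.5%) exceeded it. At the threshold itself, the 2 lowest scores were 3.003 and 3.003, and 1056 regions (18%) scored under 3.5. Just outside the rule lay 3219 regions that WT-SOX9 shared with exactly 1 other induced list, and in 613 of these (19%) the peak in that other list scored under 3.5. The median width was 403 bp (127 to 1664 bp), against 543 bp for all culture regions.

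**Figure D1:**
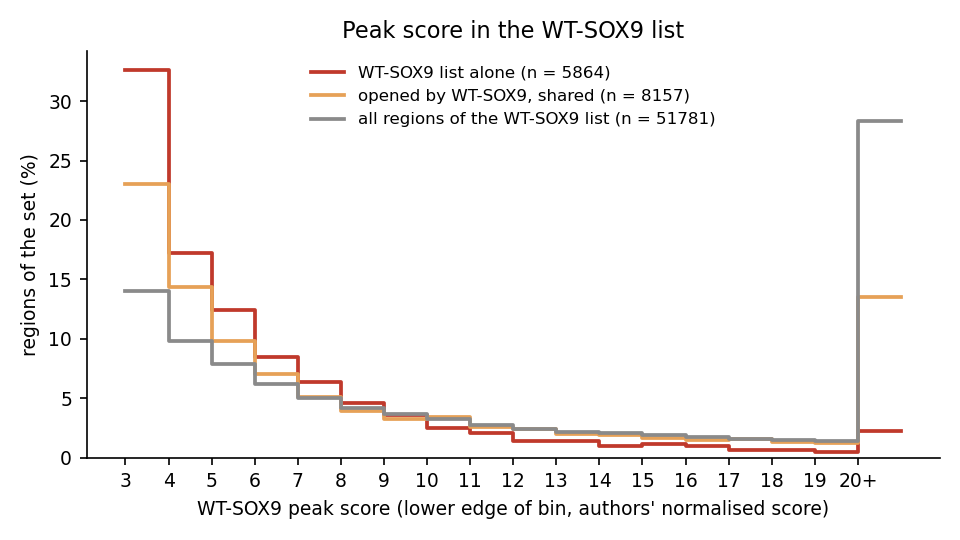
Share of regions (y axis, percent of the set) by authors' WT-SOX9 peak score (x axis, bins of width 1, the last holding scores of 20 or more) for WT-SOX9-only regions, regions opened by WT-SOX9 and shared with another induced list, and all regions of the WT-SOX9 list. WT-SOX9-only regions lay mostly at low scores, and 2.25% of them scored 20 or more against 28.3% of all WT-SOX9 regions.

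WT-SOX9-only regions made up 41.8% of the 14021 regions that WT-SOX9 opened, that is, regions without a noDOX peak and with a WT-SOX9 peak. All culture regions were opened in this sense in 14.4% of cases, a share that the rule makes 100% for WT-SOX9-only regions. The other 8157 opened regions also had a peak in another induced list, here called shared opened regions. Of the opened regions, 1714 (12.2%) were shared with SOX9+ARID1a alone and 1053 (7.51%) with SOX9+AFOS alone. The other arms shared few on their own: 174 (1.24%) with AFOS, 150 (1.07%) with ΔTA-SOX9 and 128 (0.913%) with ΔHMG-SOX9. A further 2352 were found in all 3 lists labelled as carrying complete SOX9 (WT-SOX9 and both combinations) and in no other list. The number of WT-SOX9-only regions depends on the rule. It was 11771 with noDOX, ΔHMG-SOX9 and ΔTA-SOX9 alone used for exclusion, and 2941 with a WT-SOX9 score of at least 5.

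The DNA under WT-SOX9-only regions was searched for short consensus sequences on both strands of the central 200 bp. A SOX match was present in 1123 regions, or 19.2% (95% interval 18.2 to 20.2%). The share was 15.1% (14.3 to 15.8%) in shared opened regions and 6.31% over all culture regions. In the 2352 regions of the 3 lists so labelled it was 20.2% (18.6 to 21.8%), an interval that overlaps that of the WT-SOX9-only regions. Regions of the SOX9+AFOS list alone (5518 regions) and of the SOX9+ARID1a list alone (2840) had SOX matches in 7.07% and 8.17%. These 2 sets also rest on presence in a single list.

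The letters of the SOX consensus read backwards (GATAACA or GGTAACA and reverse complements) served as a control of like base composition. They matched 4.47% (3.97 to 5.03%) of WT-SOX9-only regions and 3.43% of all culture regions. WT-SOX9-only regions were poorer in G and C, with a median GC content of 43.0% against 48.5% over all culture regions. Within bins of GC content the SOX share was still higher than over all culture regions. Under 40% GC it was 22.9% (21 to 24.9%) against 11.1% over all culture regions, from 40 to 45% it was 19.98% against 9.07%, from 45 to 50% it was 17.3% against 6.98%, and from 50% upwards it was 12.6% (10.6 to 15.0%) against 3.65%. Shared opened regions, with a median GC content of 47%, had 19.6%, 18.1%, 15.9% and 10.4% in these bins. In each bin their interval overlapped that of the WT-SOX9-only regions, so the gap between these classes was smaller at like GC content.

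AP1 is the dimer of FOS and JUN proteins that is active in keratinocytes. AP1 matches were present in 653 WT-SOX9-only regions, or 11.1% (10.4 to 12%), against 12.2% in shared opened regions and 21% over all culture regions. Here the classes of other arms lay on opposite sides, with 2.39% (2.02 to 2.83%) in regions of the SOX9+AFOS list alone and 26.6% (25 to 28.3%) in those of the SOX9+ARID1a list alone. Regions of the 3 lists so labelled had 4.76% (3.97 to 5.70%). The backward AP1 letters matched 4.95% of WT-SOX9-only regions and 5.06% of all culture regions. In every GC bin the AP1 share of WT-SOX9-only regions was lower than over all culture regions, from 8.49% against 16.2% at 50% GC or more to 12.2% against 21.6% under 40% GC. Against shared opened regions the intervals lay apart only from 40 to 45% GC, at 11.4% (10.1 to 12.9%) against 15.9% (14.3 to 17.5%).

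Of 6 further consensus sequences, those of GATA and RUNX were somewhat more frequent than over all culture regions and the other 4 less frequent. GATA matches (AGATAA or TTATCT), the motif of GATA3 in epidermis, were present in 13.3% (12.5 to 14.2%) against 9.39% over all culture regions. Within GC bins this gap was absent below 50% GC, at 18.5% against 18.5% under 40%, 14.2% against 14.2% from 40 to 45% and 9.80% against 10.4% from 45 to 50%. RUNX matches (TGTGGT or ACCACA) were present in 18.4% against 17.3%. TEAD matches (ACATTCC or GGAATGT) were present in 4.38% (3.89 to 4.94%) against 5.97%. Matches for CTCF, which organises chromatin loops, were present in 1.36% (1.10 to 1.69%) against 2.02%, and in 3.8% of shared opened regions. ETS matches (CCGGAAGT or ACTTCCGG), common in housekeeping promoters, were found in 2 regions (0.0341%) against 0.632%. TBX matches (AGGTGTGA or TCACACCT) were present in 0.819% (0.618 to 1.08%) against 1.24%. A match is a run of letters and not a bound site.

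**Figure D2:**
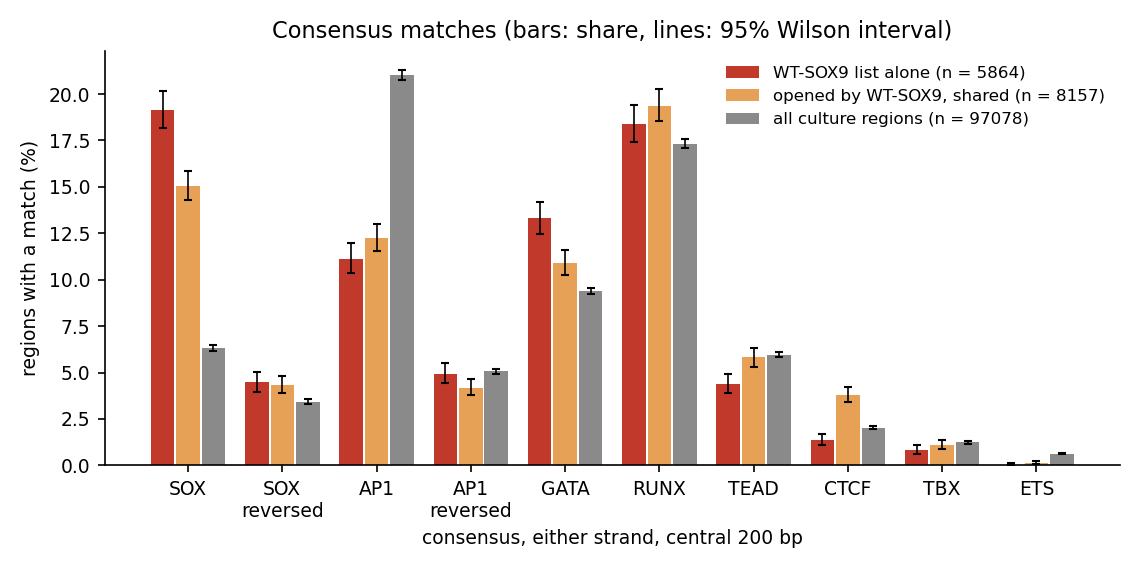
Share of regions with each consensus (y axis, percent) in the central 200 bp for WT-SOX9-only regions, shared opened regions and all culture regions, with lines for 95% Wilson intervals. Of the sets shown, SOX stands highest in WT-SOX9-only regions (19.2% against 6.31% over all culture regions) and AP1 lower there (11.1% against 21%), while the backward letters, marked reversed, match 3.43 to 5.06% of each set.

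The share with the SOX consensus changed little with the strength of the peak, whereas that with the shorter SOX core described below went from 56.4% (54.1 to 58.6%) at scores of 3 to 4 to 66.9% (63.7 to 69.96%) at 10 or more. In WT-SOX9-only regions the consensus share was 17.0% (15.4 to 18.7%) at scores of 3 to 4, 20.4% at 4 to 6, 20.7% at 6 to 10 and 19% (16.5 to 21.7%) at 10 or more. In shared opened regions it went from 9.58% (8.33 to 11%) at 3 to 4 to 20.6% (19.1 to 22.1%) at 10 or more. At scores of 3 to 4 the intervals of the 2 classes lay apart, and at 10 or more they overlapped. The AP1 share of WT-SOX9-only regions lay between 10.7% and 11.9% in all 4 score bins.

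SOX matches gathered near the middle of the regions. A bin of 20 bp held a SOX match in 2.13 to 2.63% of WT-SOX9-only regions within 60 bp of the centre, and in 0.733 to 0.853% at the outermost bins, 180 to 200 bp away. Over all culture regions the corresponding shares were 0.669 to 0.742% and 0.422 to 0.455%. Among the 1676 regions with a match within 200 bp, the closest one lay at a median of 63 bp from the centre.

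**Figure D3:**
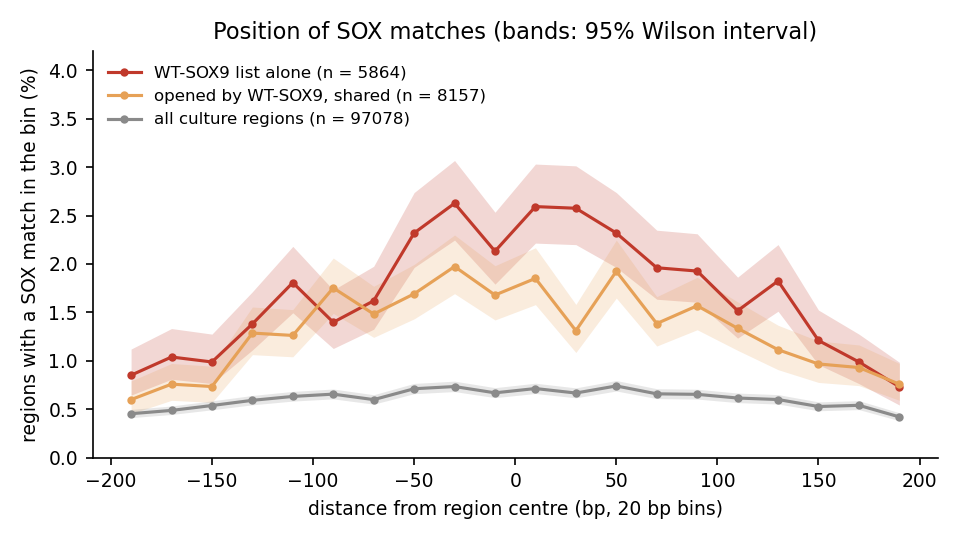
Share of regions with a SOX match (y axis, percent per 20 bp bin) by distance from the region centre (x axis, bp) in WT-SOX9-only, shared opened and all culture regions, with bands for 95% Wilson intervals. The WT-SOX9-only line rises from below 1% at the edges to between 2.13% and 2.63% within 60 bp of the centre, above the line of all culture regions across the window.

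A shorter SOX core (ACAAAG or ACAATG, or the reverse complements CTTTGT or CATTGT) overlaps the consensus where that reads ACAATGG, and was present in 3623 WT-SOX9-only regions, or 61.8% (60.5 to 63%). It was present in 49.3% of shared opened regions, 59.4% of regions of the 3 lists labelled as carrying complete SOX9, and 28.5% of all culture regions. No core was found in 2241 regions (38.2%), 1 core in 2206 (37.6%), 2 in 1095 (18.7%) and 3 or more in 322 (5.49%). SOX9 can bind as a dimer to cores that face each other. Facing cores 3 to 5 bases apart were present in 60 WT-SOX9-only regions, 1.02% (0.796 to 1.31%), against 0.225% of all culture regions. The share was 0.919% in shared opened regions and 1.49% (1.07 to 2.06%) in regions of the 3 lists so labelled, so it was not particular to WT-SOX9-only regions.

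The spacing of core pairs was uneven. Facing pairs were found in 20, 26 and 14 WT-SOX9-only regions at 3, 4 and 5 bases apart, in 10 each at 6 and 12 bases, and in at most 5 at any other spacing up to 12 bases. Pairs in the same direction were most frequent with 1 base between them, in 35 regions (0.597%, 0.429 to 0.829%, against 0.112% of all culture regions). Pairs pointing away from each other did not exceed 10 regions at any spacing up to 12 bases.

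**Figure D4:**
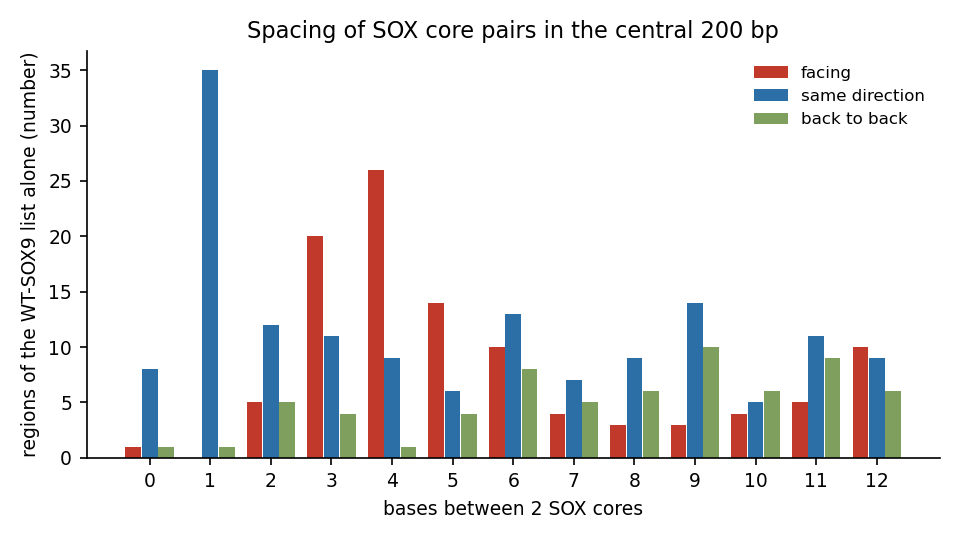
Number of WT-SOX9-only regions (y axis) with 2 SOX cores separated by a given number of bases (x axis, 0 to 12) in the central 200 bp, for cores that face each other, point in the same direction or point away from each other (back to back). Facing pairs were most frequent at 4 bases (26 regions) and pairs in the same direction at 1 base (35 regions).

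5 high-scoring regions with facing cores 4 bases apart show this arrangement. Each line gives the nearest gene and 32 bases of the plus strand of GRCm38, with SOX cores in capitals.
Cdh10: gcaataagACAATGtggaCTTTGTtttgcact
Tspan8: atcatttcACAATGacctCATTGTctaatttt
1700057G04Rik: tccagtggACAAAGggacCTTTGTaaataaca
Uevld: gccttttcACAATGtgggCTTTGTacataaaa
Trim52: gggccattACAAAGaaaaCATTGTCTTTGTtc
The Cdh10 pair (chr15:18925856-18925887) lay in an intron, 105556 bp from the TSS of Cdh10, a cadherin, in a region with a score of 30.1. The Tspan8 pair (chr10:115739301-115739332), the 1700057G04Rik pair (chr9:92360900-92360931) and the Uevld pair (chr7:46964826-46964857) were intergenic, with region scores of 26.2, 25.4 and 20.9. The Trim52 pair (chr14:106484522-106484553, score 20.6), in an intron, was followed directly by a further core.

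SOX and AP1 matches occurred together in 108 WT-SOX9-only regions (1.84%), against 1.14% of all culture regions. AP1 matches were present in 9.62% of regions with a SOX match and 11.5% of those without one. Where both were present, the closest pair lay a median of 57 bp apart. This distance is bounded by the 200 bp searched, so no preferred spacing can be read from it.

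WT-SOX9-only regions lay far from transcription start sites. Only 173, or 2.95% (2.55 to 3.42%), had their centre within 1 kb of a protein-coding TSS, against 3.43% of shared opened regions and 13.2% of all culture regions. The median distance was 46109 bp, against 29333 bp for shared opened regions and 23081 bp for all culture regions, and 48.0% (46.7 to 49.2%) lay more than 50 kb away, against 31.5%. By GENCODE M21 on GRCm38 the centre fell in an intron in 52.7%, between genes in 42.5%, in a coding exon in 1.31% and in another part of an exon in 3.41%. A peak of another culture list lay within 5 kb of 2132 regions (36.4%) and within 500 bp of 184 (3.14%).

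The 12 highest-scoring regions ran from 33.2 to 42.2. Of these, 11 lay more than 50 kb from a TSS, 7 had a SOX core and 1 a SOX consensus match, 8 had no peak in any skin list, and none had one at D0 or W1. The highest (42.2) was a region of 1605 bp in an intron of AC141639.4, 172242 bp upstream of Sema6a, a membrane-bound semaphorin. The next (39.8) lay on chr1:111058179-111058647, 81050 bp upstream of Cdh19, a cadherin. It was followed by a region 1130 bp upstream of Zfp239, which encodes a zinc finger protein (chr6:117861690-117862204, 39.2), and a region 135790 bp upstream of Meis2, a homeobox factor (chr2:116201113-116202145, 38.9).

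Others of the 12 were nearest to Apob (37.0), Sptlc3 (36.7), Cdk5rap2 (36.1), Gm9008 (35.1), Adamts12 (34.8), Flrt2 (34.3) and Malrd1 (33.2). Among all 12, the region nearest to Cdk5rap2 (chr4:69970845-69971641) had the only W2 peak, with a score of 5.36, and its W6 and W12 scores were 16.8 and 20.9. The Malrd1 region (chr2:15680387-15681230) held the single SOX consensus match. Central windows of 3 of these strong regions are shown, as they hold no SOX consensus match and differ in the SOX core, which stands in capitals where present.
Cdh19: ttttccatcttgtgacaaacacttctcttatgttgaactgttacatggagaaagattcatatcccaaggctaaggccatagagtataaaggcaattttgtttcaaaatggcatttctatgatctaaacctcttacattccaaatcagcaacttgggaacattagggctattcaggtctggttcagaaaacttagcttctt
Zfp239: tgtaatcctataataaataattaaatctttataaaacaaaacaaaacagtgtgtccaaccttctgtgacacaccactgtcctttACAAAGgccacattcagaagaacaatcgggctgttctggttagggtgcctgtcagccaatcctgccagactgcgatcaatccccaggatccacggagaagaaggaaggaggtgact
Meis2: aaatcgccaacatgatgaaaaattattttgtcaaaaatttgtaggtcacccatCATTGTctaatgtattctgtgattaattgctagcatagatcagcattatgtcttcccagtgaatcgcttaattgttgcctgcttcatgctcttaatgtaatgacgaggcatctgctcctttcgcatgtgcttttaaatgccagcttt
The Cdh19 window (chr1:111058313-111058512) held no core, the Zfp239 window (chr6:117861847-117862046) held 1 that reads ACAAAG, and the Meis2 window (chr2:116201529-116201728) held 1 that reads CATTGT on the plus strand.

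WT-SOX9-only regions were seldom accessible in skin. A skin peak overlapped 6.43% (5.83 to 7.09%) of them in the D0 list and 6.57% in the W1 list. The share was 15.5% (14.6 to 16.5%) at W2, 21.8% (20.7 to 22.8%) at W6 and 17.6% in the W12 grafts. Over all culture regions these shares were 39.1%, 39.1%, 43.8%, 51.1% and 51.3%. With noDOX, ΔHMG-SOX9 and ΔTA-SOX9 alone used for exclusion, the W2 share was 26.1% against 48.7%. Shared opened regions lay in between, with 17.2% at D0 and 36.5% at W2. No skin list had a peak in 4315 WT-SOX9-only regions (73.6%, 72.4 to 74.7%), against 40.3% of all culture regions. The other sets that rest on presence in a single list also had few skin peaks. No skin list had a peak in 61.5% of regions of the SOX9+AFOS list alone and 63.7% of those of the SOX9+ARID1a list alone, and their W2 shares were 22.2% and 20.1%. All 5 skin lists had a peak in 208 WT-SOX9-only regions (3.55%), against 31.4% of all culture regions.

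A D0 peak was present in 377 regions and a W2 peak in 911. In 595 of the WT-SOX9-only regions (10.1%, 9.40 to 10.9%) the peak was absent at D0 and present at W2, against 8.69% of all culture regions. Shared opened regions reached 21.9% (21 to 22.8%) and regions of the 3 lists so labelled 35% (33.1 to 36.9%). A D0 peak was present in 6.43% of WT-SOX9-only regions and 39.1% of all culture regions, so a larger part of the former could be gained. No higher rate of gain among regions without a D0 peak can be read from these shares. Regions with no D0 or W1 peak but with peaks in each of the later skin lists, called gained and kept here, numbered 358, or 6.11% (5.52 to 6.75%), against 5.25% of all culture regions. With noDOX, ΔHMG-SOX9 and ΔTA-SOX9 alone used for exclusion, 11.7% of 11771 regions were gained and kept, against 5.72% of all regions at that setting. With the 5864 regions as defined and skin peaks of a score of at least 5, the share was 4.45% against 4.40%, so the gap depends on these settings. The gained and kept shares also count regions with a D0 or W1 peak, which cannot be gained and were rarer among WT-SOX9-only regions. They give no higher rate among regions without such a peak. Shared opened regions had 14.8% (14 to 15.6%) and regions of the 3 lists so labelled 26.4% (24.7 to 28.2%) gained and kept. Without the list labelled W1, whose Sox9 exon peak was missing, the value was 6.53% against 6.17%.

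**Figure D5:**
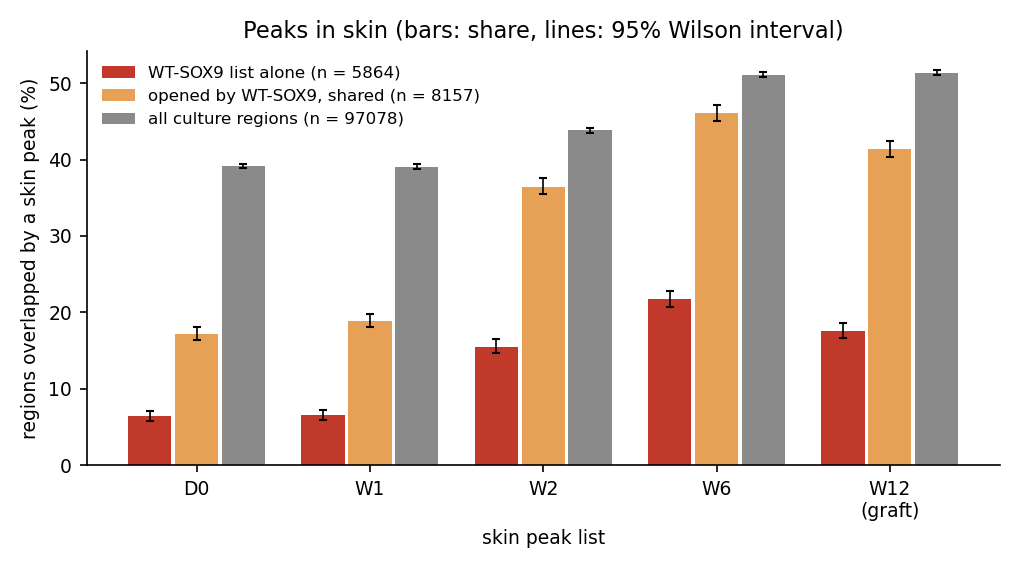
Share of regions overlapped by a skin peak (y axis, percent) in each of the 5 skin lists (x axis) for WT-SOX9-only, shared opened and all culture regions, with lines for 95% Wilson intervals. WT-SOX9-only regions stand lowest in every list, at 6.43% at D0 and 21.8% at W6, against 39.1% and 51.1% of all culture regions.

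Other skin patterns were less frequent. A peak at W6 alone was found in 231 regions (3.94%, against 2.66% of all culture regions), at W6 and W12 in 195 (3.33%, against 4.27%), at W2 and W6 in 107 (1.82%, against 1.02%) and at W12 alone in 90 (1.53%, against 2.87%). Regions with a D0 or W1 peak count in these shares too, so they do not compare rates among regions without one. Where a WT-SOX9-only region had a skin peak, the median skin score was lower than over all culture regions with a skin peak in each of the 5 lists. The medians were 6.28 against 13.6 for D0, 6.07 against 14.7 for W1, 7.91 against 13.1 for W2, 6.85 against 11.4 for W6 and 6.26 against 11.1 for W12.

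Gained and kept skin peaks were more frequent at regions with high culture scores. Regions gained by W2 and kept made up 4.55% (3.70 to 5.58%) of WT-SOX9-only regions with culture scores of 3 to 4, 5% at 4 to 6, 6.98% at 6 to 10 and 10.4% (8.55 to 12.6%) at 10 or more. Over the same bins, shared opened regions went from 6.23% to 27.0% (25.4 to 28.7%). The D0 share went the other way in WT-SOX9-only regions, from 8.36% (7.21 to 9.69%) to 4.75% (3.52 to 6.37%).

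WT-SOX9-only regions with a SOX match had fewer skin peaks than those without one. At D0 the shares were 3.03% (2.17 to 4.2%) and 7.23% (6.53 to 8.01%), at W2 they were 11.4% (9.67 to 13.4%) and 16.5% (15.5 to 17.6%), and at W6 they were 17.9% and 22.7%. For regions gained by W2 and kept the values were 6.86% (5.52 to 8.49%) and 5.93% (5.29 to 6.64%), whose intervals overlap.

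Of the 358 regions gained and kept, 77 had a SOX match and 230 a SOX core. The 6 whose sequences are given above had culture scores of 20.8 to 29.1. In the order W2, W6 and W12, the Hdac9 region had skin scores of 5.36, 19.7 and 12.4. The Orc2 region had 4.42, 9.74 and 18.3. The Pax1 region had 14.1, 50.2 and 24.2, and the Fggy region 13.5, 27.2 and 13.4. The Fam49a region had 6.35, 9.64 and 9.27, and the Arrdc4 region 3.97, 7.65 and 5.29. In 5 of the 6 regions the W6 score was the highest of the 3, and in the Orc2 region it was the W12 score.

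The 3 highest W2 scores among gained and kept regions belonged to regions without a SOX consensus match but with a SOX core, which were singled out after their values were seen. A region on chr12:16167401-16168265, 350911 bp upstream of Trib2, a pseudokinase gene, had a culture score of 29.6 and scores of 73.7 at W2, 53.5 at W6 and 30.5 at W12. A region on chr9:26518662-26519122, nearest to B3gat1 and with an AP1 match, had a culture score of 8.19 and reached 55.3 at W2. A region on chr1:151878258-151878782, nearest to Edem3, scored only 4.85 in culture and 44.5 at W2, and held a facing pair of SOX cores.

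Nearest genes were assigned by distance alone. The 5864 regions were nearest to 3656 genes, of which 2490 had 1 region, 673 had 2 and 130 had 5 or more. Cdh2, which encodes N-cadherin, had the largest number with 16 WT-SOX9-only regions out of 51 culture regions. Their scores ran from 3.56 to 29.3, 5 had a SOX match and 10 a SOX core, and none had a W2 peak. Pik3c3, a class III phosphoinositide kinase, had 15 of 44. Pde4d, a cAMP phosphodiesterase, had 14 of 64, of which 11 had a SOX core and 3 were gained and kept in skin. Sema6a had 13 of 35, with 4 gained and kept, and Chl1, a cell adhesion molecule of the L1 family, had 13 of 37.

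Among the next genes, Elmo1, a regulator of RAC signalling, stood out by share, with 10 of its 17 culture regions (58.8%) being WT-SOX9-only. Prkg1, a cGMP-dependent kinase, had 10 of 25 (40.0%) and Adgrl3, an adhesion receptor, 11 of 38. Ccser1 had 9 of 49 and Dsel 9 of 34. The farthest Cdh2 and Pik3c3 regions lay 1291419 and 2061268 bp away.

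The 16 gene lists of the hair follicle, epidermis and signalling were read against the 6.04% of all culture regions that were WT-SOX9-only. Some genes stand in more than 1 list. Of the regions nearest to 20 transcription factors of hair follicle stem cells, 24 of 587 (4.09%) were WT-SOX9-only, at 13 of the genes. Nfib had 6 of them, and the strongest was at Barx2, a homeobox factor (chr9:31700285-31700839, score 20.8, with a SOX match and W6 and W12 scores of 4.60 and 3.59). At Sox9 itself 1 of 81 regions was WT-SOX9-only, with a score of 5.05. Surface and niche markers of these stem cells had 22 of 279 (7.89%), at 10 of 23 genes. None lay nearest to Lgr5 or Krt15, markers of the bulge, which had 5 and 2 culture regions. The 22 included 4 at Lrig1, a negative regulator of EGF receptors, and 2 each at Cd34 and Lgr6. The strongest lay in an intron of Il31ra, a cytokine receptor (chr13:112578186-112578502, score 15.7), and was present in all 5 skin lists, with 29.9 at D0 and 31.2 at W12.

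SOX family genes had 23 of 293 regions (7.85%), of which 7 were at Sox6, 5 at Sox5, 5 at Sox11 and 2 at Sox2. SOX5 and SOX6 act with SOX9 in cartilage. The strongest lay in an intron of Sox6 (chr7:115669093-115670050, score 24.0), without a SOX match, and had scores of 15.9 at W2, 14.3 at W6 and 6.21 at W12. Cartilage genes, the best known targets of SOX9 outside skin, had 23 of 150 (15.3%), at 11 of 24 genes. Most of these were the same 7 regions at Sox6 and 5 at Sox5 that the SOX family list holds. Others were 2 regions each at the collagen genes Col11a1 and Col27a1, and 1 each at Col2a1, Col9a1, Col9a2, Acan and Hapln1.

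The list of epithelial to mesenchymal transition factors and cadherins had 49 of 316 regions (15.5%), the highest share of the 16 lists, at 9 of 20 genes. Cdh2 alone supplied 16 of them. The other 11 genes, among them Snai1, Snai2, Twist1, Zeb1 and Vim, had none, on 1 to 15 culture regions each. The list also included 9 regions at Tcf4, 6 at Zeb2, a transcriptional repressor, 6 at Cdh11, 5 at Cdh6, and 2 each at Cdh4, at Twist2 and at the fibronectin gene Fn1. The Hedgehog pathway had 15 of 208 (7.21%), with 1 region each at the ligand genes Shh, Ihh and Dhh and at the receptor gene Ptch1, 2 at Gli2 and 3 at Gli3, which encode effectors. The strongest Gli2 region (chr1:119097623-119098395, score 15.2) had a W1 score of 3.86, followed by 18.1, 18.2 and 11.6 in the W2, W6 and W12 lists. WNT pathway genes had 36 of 539 (6.68%), with the strongest near the ligand gene Wnt16 (chr6:22201811-22202339, score 26.8), inside an intron of Cped1. TGF-beta and BMP genes had 43 of 662 (6.50%), with 8 at the receptor gene Acvr2a and 4 at Bmpr1a, the strongest of which scored 13.5.

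Several lists had shares under 6.04%, among them the hair follicle stem cell transcription factors given above. Epidermal transcription factors had 18 of 545 regions (3.30%), with 5 each at Gata3 and Ehf, and the strongest, 978964 bp from the TSS of Gata3, scored 15.1. Keratins had 2 of 95 (2.11%), at Krt14 and Krt23, the latter with a SOX match and a score of 12.5. AP1 subunits had 1 of 144 (0.694%), at Fosl2 with a score of 12.7, and RUNX factors 3 of 83 (3.61%), 2 of them at Runx1. SWI/SNF and MLL subunits had 4 of 181 (2.21%), 2 of them at Smarca2, which encodes a remodeller ATPase.

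Notch genes had 14 of 310 (4.52%), 6 at the ligand gene Jag1 and 4 at the coactivator gene Maml2, whose strongest region scored 18.4 and held a SOX match. EGF receptors and ligands had 11 of 271 (4.06%). The strongest, nearest to Erbb4 (chr1:69157373-69157700, score 11.2), had a score of 52.2 at W2 against 17.3 at D0. Integrin and basement membrane genes had 27 of 470 (5.74%), with the strongest at Itgb6 (11.6). Of the lists named here, the cartilage and cadherin lists lay farthest above 6.04% and the AP1 subunits farthest below, on counts as small as 1 region.

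Membership differed between chromosomes, from 4.04% of culture regions on chromosome 5 to 8.21% on chromosome 6. Scores in the lists used for exclusion also differed between chromosomes. At promoter regions present in all 7 lists, the median log2 ratio of the SOX9+AFOS score to the noDOX score was 0.35 on chromosome 5 and -0.35 on chromosome 13, where 7.84% of regions were WT-SOX9-only. Across the 20 chromosomes, Pearson's r between membership and this ratio was -0.85 (Spearman's rho -0.78), with SOX9+ARID1a in place of SOX9+AFOS it was -0.80, and with the WT-SOX9 ratio it was 0.07. For the other induced lists used for exclusion it was -0.05 (AFOS), 0.20 (ΔHMG-SOX9) and 0.25 (ΔTA-SOX9). Membership also went with the median GC content of the regions on a chromosome (r = -0.82). The points share all libraries, and the part of either measure in membership was not tested. SOX matches were more frequent in WT-SOX9-only regions than in all culture regions on each of the 20 chromosomes, at 14.9 to 23.6% against 5.60 to 7.21%, and AP1 matches less frequent on each, at 8.61 to 15.6% against 18.5 to 24.2%.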

How the data were processed

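ATAC-seq peak lists of 12 groups, each of 2 samples, were used as deposited. Reads had been aligned by the authors to GRCm38 with PEPATAC. The authors merged both replicates, called peaks with MACS2 (version 2.1.1 in the submitters' processing notes) keeping duplicates, normalised the peak score and removed scores under 3. Each list therefore has no replicate error, and its read depth is unknown. The values used are these scores as deposited by the authors. The skin files also held the fold enrichment (a ratio) and the −log10 q-value deposited by the authors, which were not used here. The peak names of AFOS, SOX9+AFOS and SOX9+ARID1a state that fragments were the input, those of the other 4 culture lists do not.

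Peaks of the 7 culture lists overlapping by at least 1 bp were merged with Python (3.11.15, pandas 2.3.3), and skin peaks assigned by an overlap of at least 1 bp. Consensus sequences were sought in the central 200 bp of the RefSeq GRCm38 sequence (pysam 0.24.0), and the nearest protein-coding TSS and position were taken from GENCODE M21. The merging, overlap and search steps were tested on simulated data with known answers. Shares carry 95% Wilson intervals. No tests were run.

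The members and gene lists were chosen with earlier results of these data known. Named regions are the 12 highest-scoring, the highest-scoring of each gene list, the 6 highest-scoring with a SOX match gained by W2 and kept, and the 10 genes nearest to most regions, and 3 regions singled out later. Alternatives covered overlap, merging distance, score minimum, list length, lists used for exclusion, search window, consensus and TSS distance. No sequence from chromosome 18 is printed, and 2 of the named regions are not reported here.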

Additional observations from a re-analysis of the deposited data

How the results depend on the processing

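No paired analysis was possible because the authors pooled the replicates of each group, and leaving out a replicate was not possible for the same reason. The number of WT-SOX9-only regions (5864) moved to 2941 with a WT-SOX9 score of at least 5, and to 11771 with noDOX, ΔHMG-SOX9 and ΔTA-SOX9 alone used for exclusion. With that exclusion, 26.1% had a W2 peak (48.7% over all culture regions at the same setting, given in parentheses from here on) and 11.7% (5.72%) were gained by W2 and kept. With a WT-SOX9 score of at least 5 the SOX share was 20.4% (6.31%), the share within 1 kb of a TSS 2.14% (13.2%) and the gained and kept share 7.75% (5.25%). With that minimum in all 7 lists, 12.5% had an AP1 match, 20.9% (51.4%) a W2 peak and 8.58% (5.93%) were gained and kept. With lists of equal length, 12.2% (20.3%) had an AP1 match and 17.1% (46.7%) a W2 peak.

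Some alternatives changed the measure itself, and all culture regions moved with it. In whole regions the SOX share was 30.7% (15.5% over all culture regions) and the AP1 share 19.4% (36.3%), and in the central 100 bp they were 11.1% (3.24%) and 6.07% (12%). With the looser core the SOX share was 61.8% (28.5%), and within 5 kb of a TSS lay 9.67% (22.3%). With a skin score of at least 5, 11.2% (37.7%) had a W2 peak and 4.45% (4.40%) were gained and kept. Leaving out lists whose delivered-gene check was in doubt was chosen after seeing the data. Without the AFOS or the ΔTA-SOX9 list no share moved beyond its interval, nor did the gained and kept share without the W1 list. Without SOX9+AFOS, 9.99% (22.3%) had an AP1 match and 18.3% (45.1%) a W2 peak, and without AFOS and SOX9+AFOS these were 10.2% (22%) and 18.6% (47.1%), with a SOX share of 17.9% (6.4%). Depth was not known, so regions just under the threshold elsewhere could not be told apart from closed ones.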
